A study of Homo sapiens with 18 samples.

Results

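RANBP3L, DHRS2, LGSN and UBD are 4 of the 18417 genes measured in a time course of Raji cells, and they were chosen by the size of their disagreement between arrays: the highest and the lowest of the 3 arrays of a harvest time lay over 5-fold apart at both 24 h and 48 h. All 4 were found by symbol in the platform's gene table, and each was read from its 1-gene probe set of highest mean. In all, 17 genes passed that limit at both times, which is 0.092% of those measured. The limit alone thus did not single out these 4, and the other 13 were not listed. Because the 24 h and 48 h levels chose the genes, their values at those times are given below as a description without a test. The 12 arrays of 0 h to 12 h played no part in the choice, and differences among them were tested.

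Raji cells are an established line of human B cells, derived from a Burkitt lymphoma and carrying Epstein-Barr virus, so each value describes this single line. Per the labels, cells in RPMI medium with 10% FBS were induced with sodium n-butyrate at 3 mM and phorbol ester at 0.05 µM, received maslinic acid at 19 µM, and were harvested at 0, 4, 8, 12, 24 or 48 h. There were 3 arrays a time, which the labels number as biological replicates 1, 2 and 3. The 0 h arrays carry all 3 compounds in their labels too, and cells without them were not analysed here, so compound and time in culture cannot be told apart. Butyrate is a histone deacetylase inhibitor, phorbol esters are activators of protein kinase C, and maslinic acid is a plant triterpene.

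The 4 genes belong to unrelated families. UBD encodes FAT10, a ubiquitin-like protein that is attached to other proteins and sends them to the proteasome, and interferon gamma and TNF are known to induce it. DHRS2, also called HEP27, is a short-chain dehydrogenase/reductase that reduces dicarbonyl compounds and is known as a butyrate-induced gene in human cell lines. RANBP3L carries a Ran-binding domain and is known to take the SMAD proteins of bone morphogenetic protein (BMP) signalling out of the nucleus, and LGSN encodes lengsin, a lens protein of the glutamine synthetase superfamily with no such enzyme activity known.

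The upstream sequences of the genes are shown because the 4 fell into pairs of opposite pattern in the arrays. That even split belongs to the listed 4: of all 17 genes, replicate 3 was lowest in 15 and highest in 2. All 4 genes matched the RefSeq table of promoters on GRCh38.p14. Each line gives the 250 bases before the annotated start, 5′ to 3′ on the gene's strand, with motif matches in capitals.
RANBP3L, chr5:36301903-36302152, minus strand: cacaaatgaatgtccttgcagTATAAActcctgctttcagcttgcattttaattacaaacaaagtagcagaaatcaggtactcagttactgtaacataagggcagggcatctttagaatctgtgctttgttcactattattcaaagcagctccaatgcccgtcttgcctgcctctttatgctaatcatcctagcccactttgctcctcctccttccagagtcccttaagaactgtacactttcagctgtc
DHRS2, chr14:23629865-23630114, plus strand: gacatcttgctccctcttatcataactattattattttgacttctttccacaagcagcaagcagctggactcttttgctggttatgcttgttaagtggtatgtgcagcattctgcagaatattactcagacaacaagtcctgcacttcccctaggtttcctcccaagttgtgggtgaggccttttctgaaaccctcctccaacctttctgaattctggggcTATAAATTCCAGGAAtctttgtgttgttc
LGSN, chr6:63319984-63320233, minus strand: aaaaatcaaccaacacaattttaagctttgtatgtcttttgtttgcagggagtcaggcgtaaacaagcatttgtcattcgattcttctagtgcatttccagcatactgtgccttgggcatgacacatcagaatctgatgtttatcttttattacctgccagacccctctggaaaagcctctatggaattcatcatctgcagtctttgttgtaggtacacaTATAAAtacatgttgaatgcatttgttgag
UBD, chr6:29559733-29559982, minus strand: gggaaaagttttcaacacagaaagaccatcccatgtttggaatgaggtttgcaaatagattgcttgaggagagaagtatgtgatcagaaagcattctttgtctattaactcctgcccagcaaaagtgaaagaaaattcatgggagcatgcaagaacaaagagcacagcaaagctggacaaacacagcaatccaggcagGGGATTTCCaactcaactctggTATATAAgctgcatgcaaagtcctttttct

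The capitals in RANBP3L mark TATAAA, at 229 to 224 bases before the start. In LGSN they mark TATAAA at 30 to 25 bases before it. In DHRS2 a TATAAA at 29 to 24 bases before the start runs straight into TTCNNNGAA, the pattern of a gamma-activated (GAS) element, at 23 to 15 bases, and the 2 matches share no base. The UBD capitals mark GGGNNTTCC, searched as a looser NF-kappaB (kappaB) pattern, at 52 to 44 bases and TATATAA at 30 to 24 bases before the start. The NF-kappaB pattern given below, which fixes more letters, did not match there. That miss does not show that UBD lacks a kappaB sequence. Both patterns found in UBD were added to the search after its sequence had been seen.

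On either strand, TATAAA occurred in 10.7% of the 35116 promoters of the table, TTCNNNGAA in 6.57%, GGGNNTTCC in 5.78% and TATATAA in 2.42%. A forward TATAAA that begins 35 to 20 bases before the start stood in 777 promoters (2.21%), DHRS2 and LGSN among them. With TATATAA counted as well, 909 promoters (2.59%) held one, and 3 of the 4 genes were among those. UBD was added there by a pattern taken from its own sequence, so this count is no measure of enrichment. The GC box GGGCGG (42.6% of promoters), the AP-1 pattern TGACTCA (4.20%), the CRE pattern TGACGTCA (1.65%), the interferon-response core GAAANNGAA (6.88%) and the NF-kappaB pattern GGGANTTTC (1.12%) had no match in these windows. GC content was 42.4% in RANBP3L, 43.2% in DHRS2, 38.4% in LGSN and 41.6% in UBD, against a median of 58.0% over all promoters. A match is a description of the letters and not evidence of a bound factor.

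Replicate 3 of both late times stood apart from replicates 1 and 2 in these 4 genes and in others. At 24 h, replicate 3 lay over 2-fold above both other arrays in 89 genes and over 2-fold below both in 255. At 48 h these counts were 137 and 182 genes. The sums of 344 and 319 genes were below the 710 genes of replicate 2 of 8 h and the 382 of replicate 3 of 4 h, and the array with the fewest had 4. In 83 genes, replicate 3 was over 2-fold apart on the same side at both late times, 16 above and 67 below, whereas replicates 1 and 2 each had 0 such genes. Array medians were 4.03 to 4.25 on the log2 scale for all arrays, and the interquartile range was 2.76 for replicate 3 of 24 h and 2.85 for replicate 3 of 48 h, within the 2.74 to 3.16 of all arrays but replicate 2 of 8 h (2.37). The late values of the 4 genes are therefore given array by array, and their mean differences also without replicate 3.

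All levels are log2 intensities as deposited, so 1 unit is a 2-fold difference.

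RANBP3L was low, at 2.46 to 3.48, on 16 arrays and high on 2. At 0 h its arrays read 2.68, 3.02 and 3.45 (mean 3.05 ± 0.39, SD, n = 3, in the order of replicates 1, 2 and 3 here and below), at 4 h 2.93, 2.87 and 2.53, at 8 h 2.60, 3.48 and 2.46, and at 12 h 2.67, 2.93 and 2.71. In 10 of these 12 arrays the value was under the array's own lower quartile of all genes, near the lower end of the measured scale. No call of detection over background was used here, so a difference from such a low level is one between deposited values and its fold is not given. RANBP3L read 2.80, 3.09 and 8.57 at 24 h and 3.26, 2.90 and 9.68 at 48 h.

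Only replicate 3 was high, by 5.52 log2 units at 24 h and by 6.63 at 48 h relative to the 0 h mean. Replicates 1 and 2 lay between -0.25 and 0.21 of that mean at both times. The mean difference from 0 h of 1.77 at 24 h and 2.23 at 48 h therefore came from 1 array each: without replicate 3 it was -0.11 and 0.03.

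LGSN was likewise highest in replicate 3, on a smaller scale. Its levels were 2.32, 2.29 and 2.44 at 0 h (mean 2.35 ± 0.08, SD, n = 3), 2.48, 2.32 and 1.98 at 4 h, 2.53, 2.52 and 2.34 at 8 h, and 2.43, 2.19 and 2.53 at 12 h, all 12 under the lower quartile of their array. At 24 h LGSN read 3.59, 3.25 and 6.18, and at 48 h 3.24, 2.75 and 5.48.

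Replicate 3 was again the high array, 3.83 log2 units above the 0 h mean at 24 h and 3.13 at 48 h. In contrast to RANBP3L, all 6 late arrays of LGSN were above its highest early array (2.53), with replicates 1 and 2 at 1.24 and 0.90 over the 0 h mean at 24 h, and 0.89 and 0.40 over it at 48 h. Replicate 2 of 48 h (2.75) was still under its array's lower quartile (3.04). How many of all genes had every late array above their early ones was not counted. The mean difference from 0 h was 1.99 at 24 h and 1.47 at 48 h, and 1.07 and 0.65 without replicate 3. LGSN is a lens gene by its known biology. The other 17 lens genes measured, crystallins and lens membrane proteins among them, had a list mean of 3.86, 3.81 and 3.84 at 24 h and 3.92, 3.95 and 3.96 at 48 h, inside the 3.71 to 4.02 of the early arrays.

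UBD ran the other way. Its early arrays read 3.74, 3.44 and 3.86 at 0 h (mean 3.68 ± 0.22, SD, n = 3), 4.03, 3.69 and 3.59 at 4 h, 3.33, 3.46 and 3.53 at 8 h, and 3.94, 4.01 and 3.76 at 12 h. At 24 h UBD read 8.23, 6.80 and 3.46, and at 48 h 8.68, 7.90 and 4.29. Replicates 1 and 2 were the high arrays, 23.3-fold and 8.71-fold above the 0 h mean at 24 h and 31.9-fold and 18.7-fold above it at 48 h.

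Replicate 3 of UBD lay 0.22 log2 units under the 0 h mean at 24 h, inside the early range, and 0.61 over it at 48 h, just above the early maximum of 4.03. A further UBD probe set gave the same picture, with 7.90, 6.46 and 3.21 at 24 h and 8.45, 7.67 and 4.10 at 48 h. Whether it shares probes with the first was not checked, so it is not taken as independent support. The mean difference from 0 h was 2.48 at 24 h and 3.28 at 48 h, and 3.83 and 4.61 without replicate 3.

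DHRS2 shared the low replicate 3 with UBD but was uneven earlier. Its levels were 4.40, 4.74 and 4.44 at 0 h (mean 4.53 ± 0.18, SD, n = 3), 4.47, 4.57 and 4.49 at 4 h, 5.64, 4.86 and 4.33 at 8 h, and 6.31, 4.61 and 6.73 at 12 h. At 24 h DHRS2 read 7.95, 7.43 and 4.32, and at 48 h 8.22, 9.10 and 4.23.

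At 12 h replicate 2 was the low array and replicate 3 the highest, which is not the order of 24 h and 48 h. That range of 2.12 log2 units (4.35-fold) was exceeded by 1 of the 18417 genes at 12 h, a time the choice of genes did not use. DHRS2 was alone in this: at 12 h, 63.2% of genes had a larger range than RANBP3L, 46.9% than LGSN and 64.7% than UBD. At the late times replicates 1 and 2 lay 10.7-fold and 7.49-fold above 0 h at 24 h and 12.9-fold and 23.9-fold above it at 48 h, while replicate 3 lay 0.20 and 0.30 log2 units below it. The mean difference from 0 h was 2.04 at 24 h and 2.66 at 48 h, and 3.16 and 4.13 without replicate 3.

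**Figure D1:**
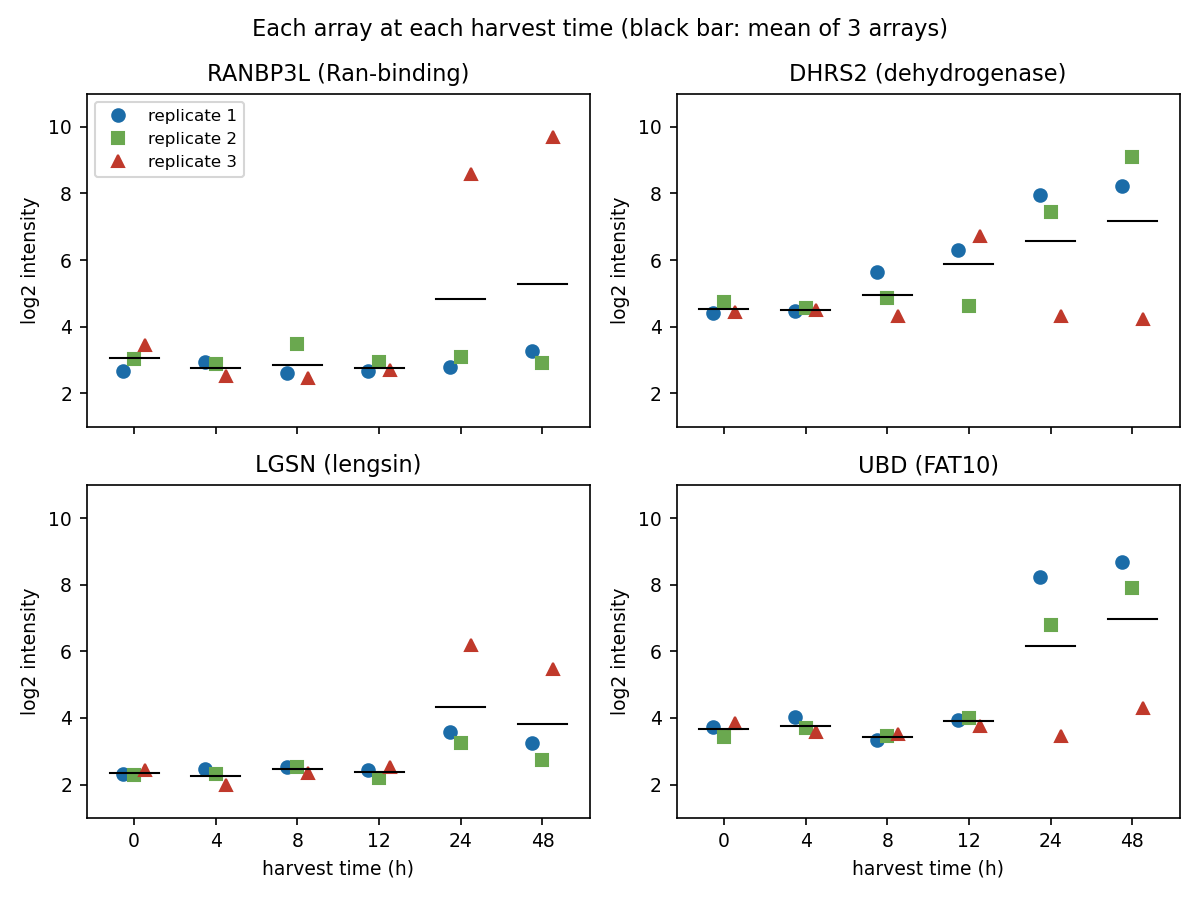
Log2 intensity of the 4 genes (vertical axis) on each array at each harvest time in hours (horizontal axis), with symbols for the replicate number and a black bar for the mean of 3 arrays. At 24 h and 48 h, replicate 3 is the high array for RANBP3L and LGSN and the low array for UBD and DHRS2, and DHRS2 has a low replicate 2 at 12 h.

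By mean level, RANBP3L, DHRS2 and UBD were highest at 48 h, followed by 24 h, and LGSN was highest at 24 h, followed by 48 h. DHRS2 came next at 12 h (5.88 ± 1.12), 8 h (4.95 ± 0.66), 0 h (4.53 ± 0.18) and 4 h (4.51 ± 0.05). Neighbouring times in these orders overlapped in their arrays for every gene except LGSN, whose 48 h arrays all lay above its 8 h arrays. The gap was small, from 2.53 to 2.75, and near the lower end of the scale. How many of all genes had such a gap was not counted.

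Before 24 h, 0 of the 12 differences from 0 h passed the test (limma's moderated two-sided test, adjusted over all genes), with unadjusted p from 0.181 up, against 1.75% of all genes called at 4 h, 6.68% at 8 h and 8.05% at 12 h. DHRS2 at 12 h was the widest, with 6.31, 4.61 and 6.73 at 12 h against 4.40, 4.74 and 4.44 at 0 h. The difference was 1.36 log2 units with an interval of -0.69 to 3.40 (95%, SE 0.97, limma adjusted p = 0.477). DHRS2 was above the highest 0 h array in 2 of 3 arrays at 12 h.

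That SE includes the wide late arrays, which the choice of genes selected. With the 6 arrays of 12 h and 0 h alone it was 0.43, and limma's adjusted p was 0.0768. At 8 h DHRS2 differed from 0 h by 0.42 (limma adjusted p = 0.895 with all arrays and 0.648 with 6). For RANBP3L, LGSN and UBD the differences at 4, 8 and 12 h lay between -0.28 and 0.22, with adjusted p from 0.930 up with all arrays and from 0.455 up with 6 arrays (limma). These missed tests do not show that the genes were unchanged.

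Set against all genes, the spread of the 4 was far out in the distribution, as their choice required. The median gene ranged over 0.364 log2 units between the arrays of 24 h and 0.414 at 48 h. Ranges for RANBP3L were 5.78 at 24 h and 6.78 at 48 h, for UBD 4.77 and 4.38, for DHRS2 3.63 and 4.87, and for LGSN 2.94 and 2.72. Over 5-fold apart were 44 genes at 24 h (0.239%) and 56 at 48 h (0.304%). Each earlier time had fewer such genes: 17 (0 h), 19 (4 h), 34 (8 h, 0.185%) and 0 (12 h). Wide spread was thus not confined to the late arrays, and the median range of 8 h, 0.448 log2 units, was above that of either late time.

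**Figure D2:**
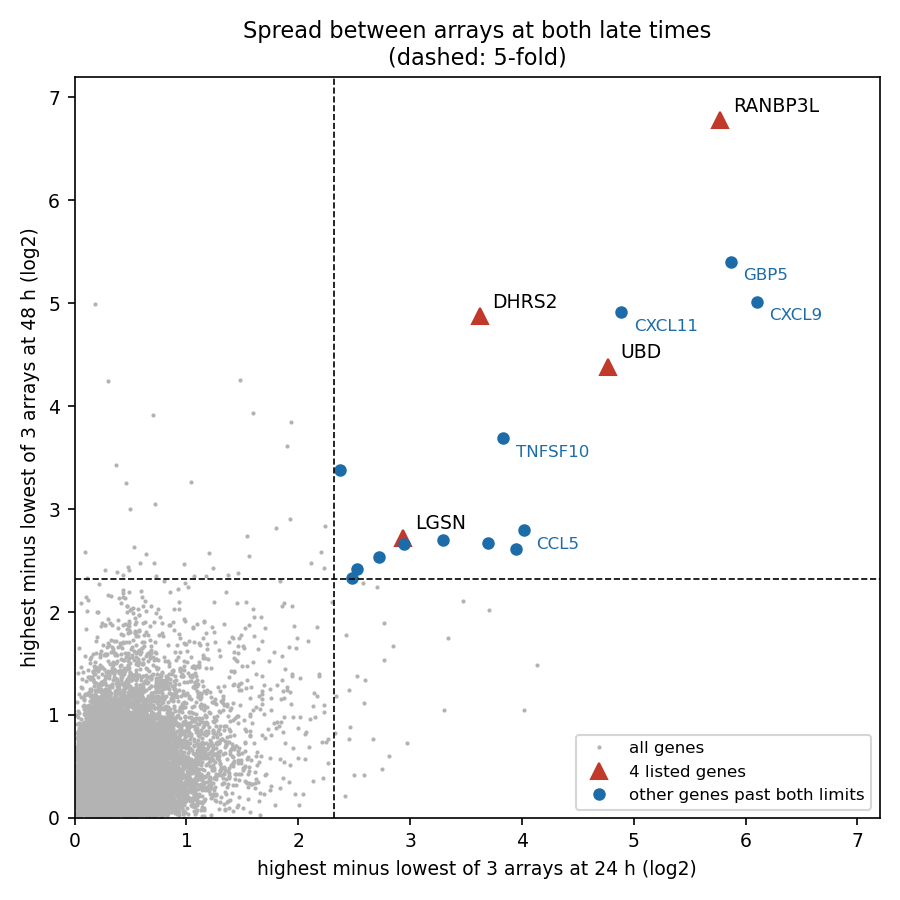
Highest minus lowest of the 3 arrays in log2 units at 24 h (horizontal axis) and 48 h (vertical axis), 1 point per gene, with dashed lines at 5-fold. The 4 listed genes and the other 13 genes past both lines lie apart from the bulk of the 18417 genes.

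Replicate 3 was the outlying array in every one of the 17 genes past both limits. It was the lowest array at both times in 15 of them and the highest at both in 2, RANBP3L and LGSN. The other 13 genes, none of which was listed, all had the low replicate 3 of UBD and DHRS2. The widest were GBP5, a guanylate-binding protein, CXCL9 and CXCL11, chemokines induced by interferon gamma, TNFSF10, the death ligand TRAIL, and CCL5, a further chemokine, with smaller ranges of 5.40, 5.02, 4.89, 3.69 and 2.80.

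Just inside the limit were TXNIP, a thioredoxin inhibitor (5.04-fold), and CCL4, a chemokine (5.19-fold). Just outside it were CD274, the checkpoint ligand PD-L1 (4.85-fold), and DDX60, a helicase of the antiviral response (4.74-fold), both lowest in replicate 3. LGSN was the listed gene nearest to the limit, at 6.60-fold.

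**Figure D3:**
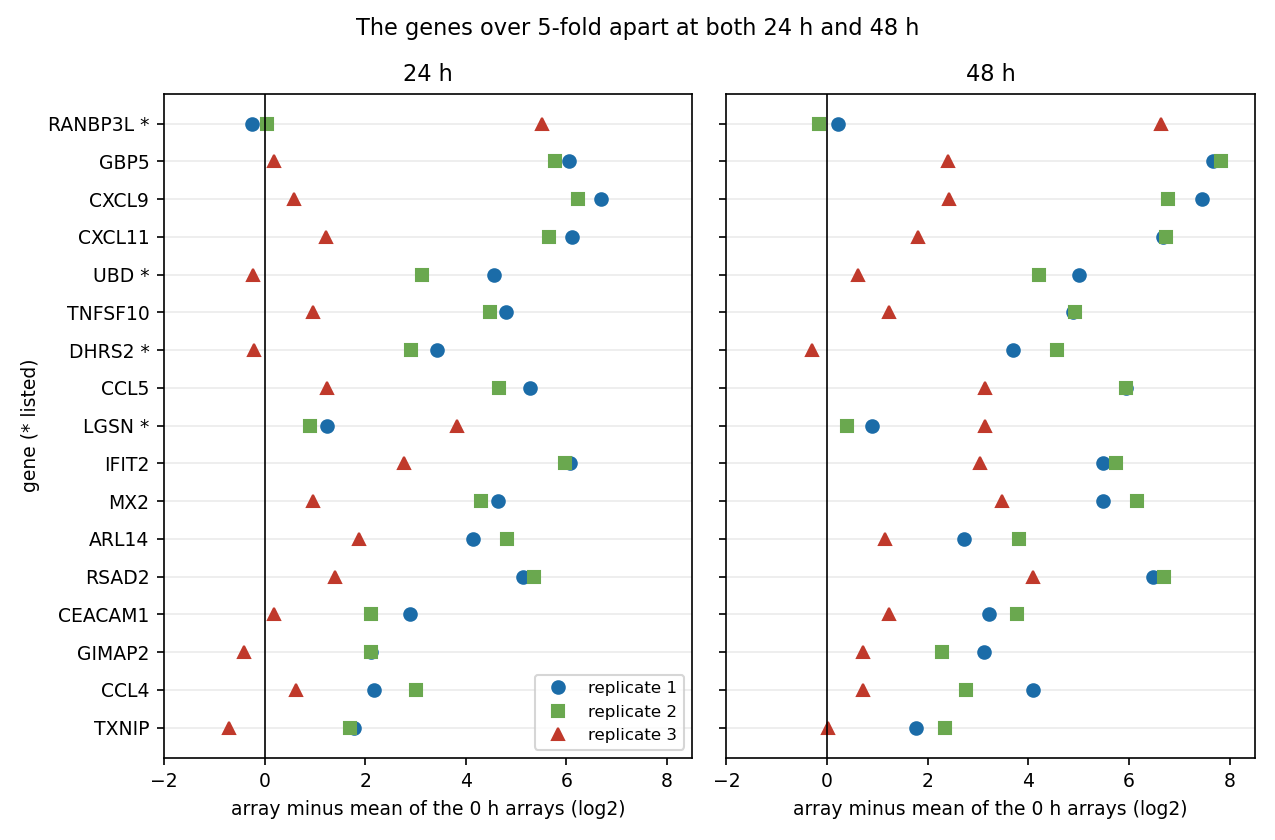
The 17 genes over 5-fold apart at both late times (vertical axis, listed genes starred), each array as its log2 difference from the mean of the 0 h arrays (horizontal axis), at 24 h on the left and 48 h on the right. Replicate 3 lies to the right of the others for RANBP3L and LGSN and to their left for the other 15 genes.

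For each gene, the 3 other genes with the most similar levels were taken by Pearson's r over the 18 arrays among 1752 genes whose levels spanned at least 2 log2 units. The arrays share a time course and the same outlying replicate, so r is a description. For UBD these were GBP5 (r = 0.975), CXCL9 (0.973) and CXCL11 (0.970). GBP5 read 8.87, 8.59 and 3.00 at 24 h and 10.48, 10.64 and 5.23 at 48 h, against 2.66 to 3.47 on the early arrays. CXCL9 read 10.30, 9.84 and 4.20 at 24 h and 11.06, 10.38 and 6.04 at 48 h. In both, replicate 3 was the lowest late array, and in GBP5 it lay inside the early range at 24 h, as in UBD.

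For RANBP3L the nearest were CCL26 (r = 0.949), the chemokine eotaxin-3, MYRFL (0.945), a gene of the myelin regulatory factor family, and SLC6A12 (0.937), a betaine and GABA transporter. CCL26 read 2.65, 2.71 and 4.57 at 24 h and 2.97, 2.64 and 4.30 at 48 h, and SLC6A12 3.90, 4.19 and 6.14 at 24 h and 4.37, 3.97 and 6.80 at 48 h. Replicates 1 and 2 of CCL26 were close to its early range of 2.44 to 2.94, and replicate 3 was the high array of both genes at both late times.

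LGSN was nearest to MPP1 (r = 0.957), a membrane scaffold protein of red cells, MPZL2 (0.933), an adhesion protein, and RANBP3L (0.919). MPP1 read 4.15, 4.07 and 6.27 at 24 h and 3.43, 3.34 and 5.92 at 48 h, against 2.81 to 3.62 early. As with LGSN, its replicates 1 and 2 were above the early range at 24 h.

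For DHRS2 the nearest were EPS8 (r = 0.924), an actin-capping protein, VWA5A (0.908) and SNX9 (0.899), a sorting nexin of endocytosis. SNX9 read 5.36, 4.11 and 5.34 at 12 h, 7.34, 7.50 and 5.27 at 24 h, and 7.38, 7.75 and 5.32 at 48 h. EPS8 read 4.53, 3.16 and 4.24 at 12 h, and VWA5A 4.43, 3.67 and 4.49. Replicate 2 was thus the low array at 12 h in these 3 genes as in DHRS2, and replicate 3 the low array later. Replicate 2 of 12 h lay over 2-fold below both other arrays in 65 genes and above both in 24.

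Among the 4 themselves, r was 0.919 between RANBP3L and LGSN and 0.873 between DHRS2 and UBD, and from -0.285 to 0.152 for the pairs across.

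**Figure D4:**
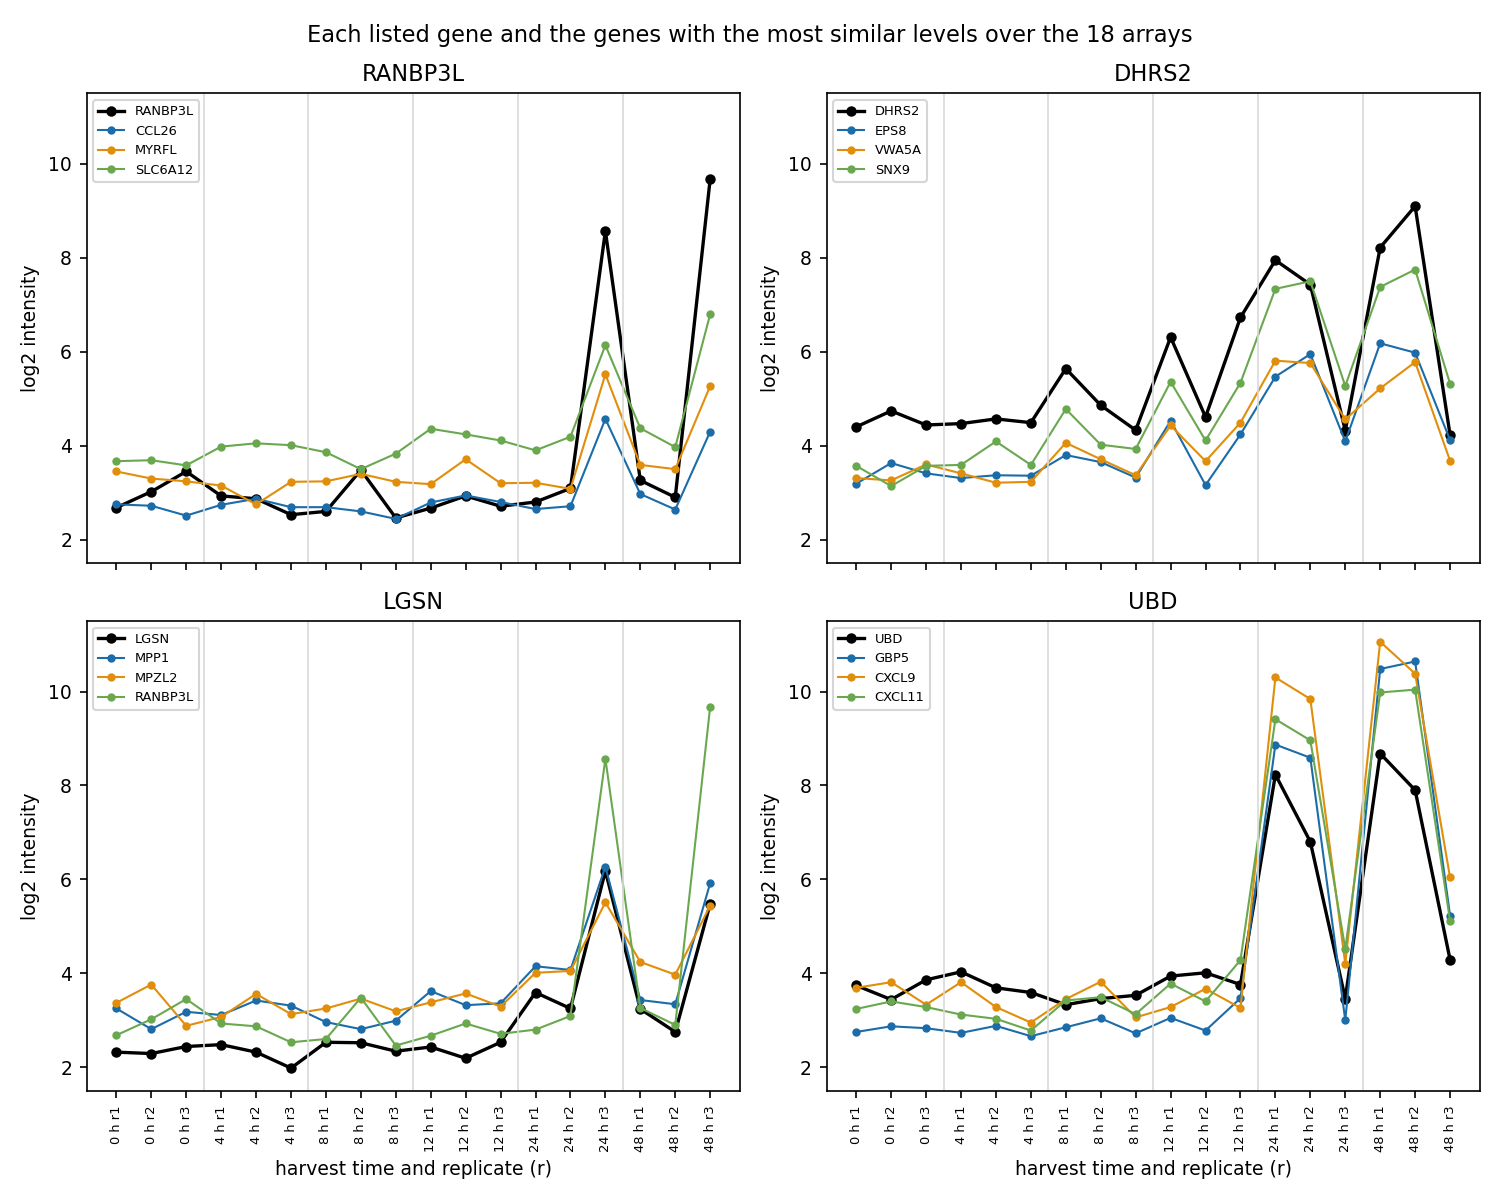
Log2 intensity (vertical axis) of each listed gene in black and of the 3 genes most like it in colour, over the 18 arrays ordered by harvest time and replicate (horizontal axis). Lines only join the points of a gene. RANBP3L and LGSN peak in replicate 3 of 24 h and 48 h with their neighbours, while DHRS2 and UBD dip there with theirs.

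The pathways of the 4 genes were read from gene lists that leave the 4 out, with the 24 h and 48 h arrays against 0 h. Of all genes, limma called 6.74% higher and 5.74% lower at 24 h, and 6.92% higher and 8.11% lower at 48 h. With each array centred on its median, which moved every difference by -0.09 at 24 h and -0.14 at 48 h, the higher share of the calls was 42.9% in place of 54.0% at 24 h and 30.5% in place of 46.1% at 48 h. The median gene differed from 0 h by -0.01 at 24 h and 0.05 at 48 h.

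Around UBD, 5 of 11 measured genes of FAT10 conjugation and the immunoproteasome rose at 24 h and 6 at 48 h, and 0 fell (median differences 0.61 and 0.65). Without replicate 3 of both late times the counts were also 5 and 6, and with centred arrays 5 and 4. The 24 h count was 3 without replicate 1 or replicate 2 of 24 h, and the 48 h count was 3 without replicate 3 of 0 h. NUB1, which binds FAT10 and speeds its breakdown, read 10.75, 10.78 and 10.06 at 24 h and 10.88, 11.04 and 10.21 at 48 h, against 9.18, 9.62 and 9.68 at 0 h. It rose by 1.22 at 48 h (SE 0.23, limma adjusted p = 0.000961), with replicate 3 the lowest array at both times. SQSTM1, an autophagy receptor, rose by 2.43 at 48 h (limma adjusted p = 4.51e-05) with 9.30, 8.82 and 8.73 at 24 h and 8.22, 8.42 and 8.51 at 48 h, against 5.53, 5.76 and 6.58 at 0 h. Its replicate 3 was the lowest array at 24 h and the highest at 48 h. SQSTM1 already read 8.05, 7.54 and 8.30 at 8 h. POMP, a proteasome assembly factor, rose by 0.60 (adjusted p = 0.00655) and PSME2, a proteasome activator subunit, by 0.78 (adjusted p = 0.0116) at 48 h in the same limma fit. The conjugation enzymes of the list, UBA6 and UBE2Z, were not called at either time (limma adjusted p from 0.152 up). PSMB10, an immunoproteasome subunit, differed by -0.15 at 24 h and -0.13 at 48 h and was not called. PSMB9, a further subunit, rose by 1.10 at 24 h and 1.17 at 48 h (limma adjusted p = 0.0455 and 0.0285). PSMB8, another, rose by 1.46 at 24 h (limma adjusted p = 0.0191) and was not called at 48 h (0.92, limma adjusted p = 0.14).

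Of 11 measured ubiquitin-like modifiers, the family of FAT10, 2 rose at 24 h and 4 rose and 1 fell at 48 h (medians 0.26 and 0.40), with the same counts without replicate 3. The 24 h count was 1 with centred arrays and without any single one of replicates 1 and 2 of 24 h or of 0 h. At 48 h, 2 genes in all were called when replicate 1 of 0 h was left out, and 3 when its replicate 2 was. ISG15, an interferon-induced modifier, read 8.52, 7.90 and 5.76 at 24 h and 7.69, 8.38 and 6.84 at 48 h, against 4.68, 5.03 and 4.39 at 0 h. Its replicate 3 was the lowest late array but, unlike that of UBD at 24 h, lay above all early arrays (highest 5.20). ISG15 rose by 2.94 at 48 h (SE 0.49, limma adjusted p = 0.000372), and UBB, a ubiquitin gene, by 0.95, GABARAP by 0.89 and MAP1LC3B, like GABARAP an autophagy modifier, by 0.77 (limma adjusted p from 0.00531 to 0.0146). The gene that fell was SUMO3, a SUMO modifier, by 0.87 (limma adjusted p = 0.0276), and the pair that rose at 24 h was ISG15 and GABARAP.

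In the interferon response list, 15 of 17 measured genes rose and 0 fell at 24 h and at 48 h, with or without replicate 3 (medians 3.30 and 4.28). The list mean was 8.47, 8.19 and 6.30 at 24 h and 8.34, 8.60 and 7.39 at 48 h, against 4.02 to 4.35 on the early arrays. Replicate 3 was the lowest array at both times but lay above every early array. Without the 3 genes next named, the mean of the other 14 was 8.47, 8.15 and 6.60 at 24 h and 8.20, 8.43 and 7.54 at 48 h. Of the 17 genes over 5-fold apart at both late times, 3 were in this list (IFIT2, MX2 and RSAD2). IFIT1, an antiviral RNA-binding protein, read 10.70, 10.71 and 8.90 at 24 h and rose by 6.89 at 48 h (limma adjusted p = 4.01e-09), and IFI44L, IFI44 and IFIT3 rose by 7.62, 6.64 and 5.45 at 48 h (limma adjusted p up to 1.09e-08). UBD in replicate 3 was near its early level on arrays where the interferon list was above its own.

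For NF-kappaB targets, a pathway that TNF activates, 9 of 14 rose and 0 fell at both late times (medians 1.82 and 1.31), and 11 and 8 rose without replicate 3. The list mean was 7.17, 6.97 and 5.91 at 24 h and 6.47, 6.67 and 6.23 at 48 h, so replicate 3 was the lowest, by more at 24 h, and lay above every early array (highest 5.79). Without CCL4, chosen above for its range, replicate 3 was lowest at 24 h (7.33, 7.05 and 6.09) and level with replicate 1 at 48 h (6.43, 6.74 and 6.43). TNF itself, a known inducer of UBD, read 8.15, 7.00 and 7.35 at 24 h and 6.40, 6.50 and 6.73 at 48 h, against 4.28, 3.31 and 3.59 at 0 h, and its replicate 3 was not low at either time. TNF rose by 2.82 at 48 h (SE 0.31, limma adjusted p = 4.82e-06). It was above its 0 h arrays already at 4 h (5.73, 5.46 and 5.79), and at 12 h it read 6.73, 6.22 and 6.45. CCL3, a chemokine, TNFAIP3, a feedback inhibitor, and NFKBIA, which holds NF-kappaB in the cytoplasm, rose by 3.06, 2.33 and 1.90 (limma adjusted p up to 0.000600).

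Around DHRS2, 1 of 15 measured short-chain dehydrogenases rose and 0 fell at 24 h and at 48 h (medians 0.02 and -0.05). It was DHRS7B at 24 h, up by 0.86 (limma adjusted p = 0.0147), and HSD11B1, the cortisol-regenerating enzyme, at 48 h, up by 0.78 (limma adjusted p = 0.0229), but with centred arrays 0 rose and 2 fell at 48 h. HSD11B1 read 3.85, 4.16 and 3.18 at 48 h, against 2.87, 2.99 and 3.00 at 0 h. CBR4 and DHRS11 differed by -0.71 and -0.79 at 48 h and did not pass limma's test (adjusted p = 0.0845 and 0.0904). Without replicate 3, 1 rose at 24 h, and 1 rose and 1 fell at 48 h. The 24 h call was lost, with 0 genes called, with only the 6 arrays compared and without replicate 2 of 0 h or replicate 1 of 24 h. At 48 h, 0 were called without the dimmest genes and without any single one of replicates 1 and 2 of 48 h or of 0 h.

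Of 6 measured genes known to respond to histone deacetylase inhibitors, 2 rose at both late times, and 3 without replicate 3 (medians 0.52 and 0.72). Leaving out replicate 1 of 24 h gave 0 at 24 h, leaving out replicate 2 of 0 h gave 1, and at 48 h the count was 1 without any single one of replicates 1 and 2 of 48 h or of 0 h. CDKN1A, the cell cycle inhibitor p21, read 6.57, 6.16 and 5.18 at 24 h and 5.76, 5.78 and 5.93 at 48 h, against 4.46, 4.99 and 4.55 at 0 h. It rose by 1.16 at 48 h (SE 0.30, limma adjusted p = 0.0132), when replicate 3 was its highest array, and GADD45B, a stress gene, rose by 1.54 (limma adjusted p = 0.0257). GADD45B already read 6.34, 6.27 and 7.35 at 4 h, against 5.37, 4.18 and 5.65 at 0 h. TXNIP, like DHRS2, was lowest in replicate 2 at 12 h and in replicate 3 later, with 7.96, 7.16 and 7.82 at 12 h, 9.75, 9.67 and 7.27 at 24 h and 9.74, 10.32 and 7.99 at 48 h, against 7.97, 8.01 and 7.96 at 0 h. Its difference of 1.37 at 48 h gave a limma adjusted p of 0.114, and 4.77e-05 without replicate 3. ALPP, a phosphatase, differed by 0.27 (limma adjusted p = 0.458). The list mean was 5.52, 5.37 and 4.65 at 24 h and 5.34, 5.42 and 4.98 at 48 h, and without TXNIP it was 4.68, 4.51 and 4.13 at 24 h and 4.46, 4.44 and 4.38 at 48 h. The low replicate 3 of this list at 48 h thus came largely from TXNIP, one of the 17 genes chosen for it.

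**Figure D5:**
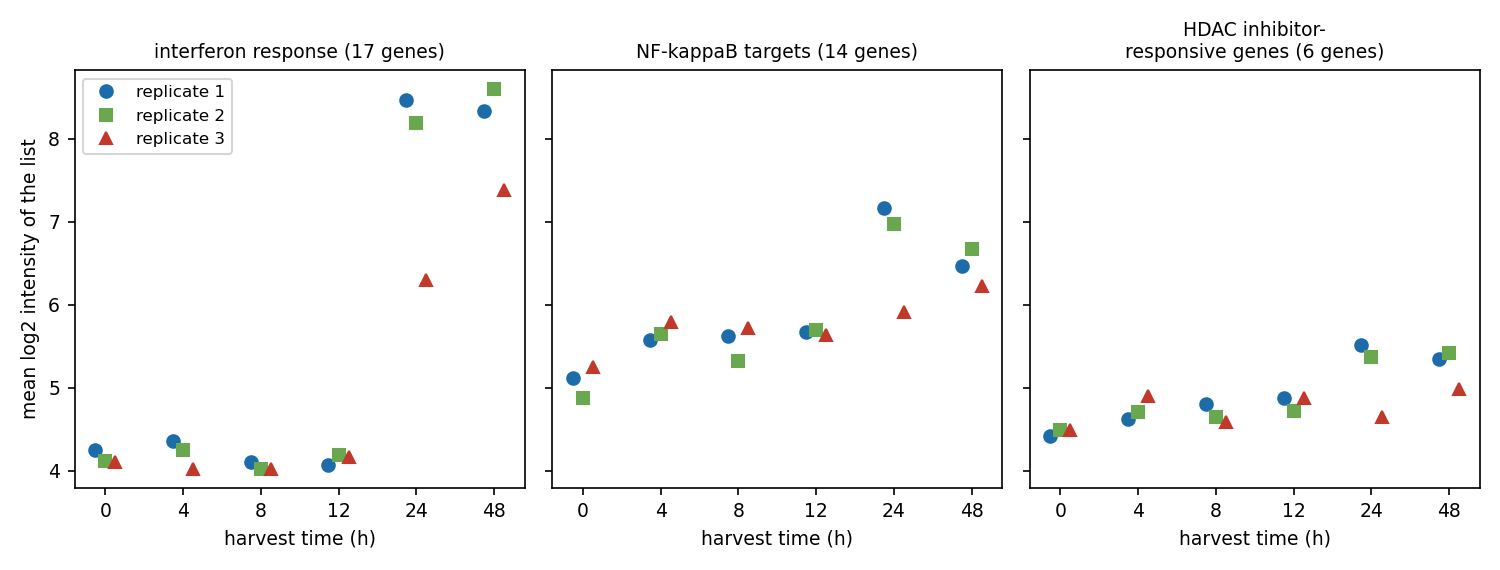
Mean log2 intensity of the measured genes of the interferon response, NF-kappaB target and histone deacetylase (HDAC) inhibitor-responsive lists (vertical axis) on each array by harvest time in hours (horizontal axis). Replicate 3 is the lowest array of all 3 lists at 24 h and at 48 h, by little in the HDAC list at 48 h once TXNIP is left out, and in the interferon and NF-kappaB lists it lies above every early array.

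Around RANBP3L, 1 of 14 measured Ran cycle and nuclear transport genes rose and 1 fell at 24 h, and 0 rose and 3 fell at 48 h (medians -0.23 and -0.35), 5 falling with centred arrays and 1 after quantile normalization. RANBP1, a Ran-binding regulator of the cycle, read 7.47, 7.13 and 7.08 at 24 h and 5.82, 7.01 and 7.66 at 48 h, against 9.05, 9.26 and 8.70 at 0 h. It fell by 2.17 at 48 h (SE 0.31, limma adjusted p = 9.07e-05). KPNA2, an importin, and XPO1, the main export receptor, fell by 0.65 and 0.53 at 48 h (limma adjusted p = 0.0190 and 0.0243), and RAN differed by -0.42 (limma adjusted p = 0.0686). The gene that rose at 24 h was RANBP6, by 0.73 (limma adjusted p = 0.0350, and 0.190 without replicate 3). No late array of these 4 genes lay above its highest 0 h array. Without replicate 3, 0 rose and 1 fell at 24 h, and 0 rose and 4 fell at 48 h. In all, 1 gene was called at 24 h without any single one of replicates 2 and 3 of 24 h or replicates 1 and 3 of 0 h, and 1 at 48 h without replicate 1 of 48 h or replicate 2 of 0 h.

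Of 15 measured BMP-SMAD genes, 3 rose and 1 fell at both late times (medians -0.04 and 0.10), and 2 rose and 1 fell without replicate 3. SMAD1, a SMAD of the kind that RANBP3L is known to export, read 4.16, 4.41 and 4.70 at 24 h and 4.18, 4.20 and 3.63 at 48 h, against 6.74, 6.29 and 6.37 at 0 h. It fell by 2.46 at 48 h (SE 0.26, limma adjusted p = 2.83e-06). SMAD1 already read 4.89, 3.79 and 4.35 at 8 h. BMPR2, a BMP receptor, and ID2, a BMP target, rose by 1.77 and 1.67 (limma adjusted p = 1.43e-06 and 0.000826), and ID3, a further target, by 1.03 (adjusted p = 0.0274, and 0.148 without replicate 3).

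Around LGSN, 0 of 11 measured glutamine metabolism genes rose and 5 fell at 24 h, and 2 rose and 4 fell at 48 h (medians -0.26 and -0.05), with 3 called at 24 h without replicate 3 of 24 h, replicate 1 of 0 h or replicate 2 of 0 h. CTPS1, which makes CTP with glutamine, read 5.92, 6.13 and 6.78 at 48 h, against 8.41, 8.24 and 7.78 at 0 h, and fell by 1.87 (SE 0.27, limma adjusted p = 8.78e-05). GMPS, a guanine nucleotide enzyme, and CAD, a pyrimidine enzyme, fell by 0.99 and 0.76, and the glutamine carrier SLC38A2 rose by 1.24 at 48 h (limma adjusted p from 9.57e-05 to 0.00570).

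The list means of markers of other cell types varied little between arrays, though single T cell markers such as IL7R (5.28 to 8.30) were well above the array medians, with the highest mean at 0 h (7.93). B cell markers, 7 of 10 measured, had a list mean of 5.96 at 24 h and 6.82 at 48 h in replicate 3, against 6.61 and 6.20 at 24 h and 6.10 and 6.35 at 48 h in replicates 1 and 2. The 0 h arrays had 7.09 to 7.29, and all early arrays 6.02 to 7.40. Replicate 3 of 24 h was thus the lowest of all 18 arrays. MS4A1, which encodes CD20, was at 8.33 or above on every array, whereas CD79A, a B cell receptor subunit, averaged 5.48 at 48 h, against 7.25 at 0 h, and BLK, a B cell kinase, 3.45 at 24 h, against 4.57 at 0 h. T cell markers, 10 of 10 measured, had a list mean of 4.16 at 24 h and 4.05 at 48 h in replicate 3, above the 3.79 to 3.99 of the other late arrays and within the 3.84 to 4.28 of the early ones. Monocyte markers, 9 of 10 measured, were at 3.44 and 3.49 in replicate 3, above the other late arrays (3.32 to 3.43) and below the early maximum of 3.52. Epithelial markers, 9 of 10 measured, were at 3.89 and 4.02 in replicate 3, within 3.70 to 4.07 over all arrays, and fibroblast markers, 10 of 10 measured, at 3.37 and 3.61, within 3.36 to 3.61. The epithelial list was mixed. EPCAM (2.42 to 3.44) was under every array median, whereas KRT14 (4.44 to 5.13) and KRT18 (4.43 to 5.59) were above every one. Of the CD3 subunits that define T cells, CD3E (2.84 to 3.86) was under every array median. CD3D averaged 4.84 at 24 h, against 3.27 at 0 h, and CD3G reached 4.40 on its highest array. The part of these markers in the late values of the 4 genes was not tested. In bulk RNA, fewer cells with a transcript and less of it per cell cannot be told apart, and whether either differed between the cultures was not tested.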

How the data were processed

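The 18 arrays of Raji cells were grouped by harvest time from their titles, with 3 biological replicates a time. The deposited values are log2 intensities per probe set that the authors had normalized between arrays. The log base was deduced from their range, and software, normalization method and build are not given in the sources used here. Per the labels' protocols, biotinylated cDNA was made from total RNA.

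Of 33297 probe sets, 19460 named exactly 1 gene. Each of 18417 genes took its probe set of highest mean. A limma 3.58.1 model in R 4.3.3 of time alone was fitted to all arrays (12 residual and 5.58 prior degrees of freedom), with Benjamini-Hochberg adjustment over all genes and calls at an adjusted p under 0.05. Its script was checked on simulated data. Tables and plots used Python 3.11.15, pandas 2.3.3 and matplotlib 3.10.9.

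Alternatives were quantile normalization, centring, leaving out the genes whose mean lay in the dimmest 0.25 of all, the mean of all probe sets, array weights, a replicate block, only the arrays of the times compared, and leaving out each array. The model without replicate 3 of both late times was added after seeing the data, as were list means without genes past the 5-fold limit.

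Of 45 pairs of same-numbered arrays from different times, 19 had deviations from their time's mean correlated over 0.1 (range -0.24 to 0.60). Pairs of different number are not given for comparison, so this count does not show that same-numbered arrays go together. All 3 numbers passed that limit in 2 of 15 pairs of times, 8 h with 0 h (0.14 to 0.20) and 8 h with 4 h (0.18 to 0.60), and the labels name no shared batch.

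The 4 genes and the lists were chosen with earlier results of these data known. Besides the 4, the text names their 3 most similar genes, up to 4 genes of each list with the smallest adjusted p at 48 h, and genes nearest to and farthest past the 5-fold limit. IFIT2, MX2, RSAD2, RANBP6, SUMO3, UBA6, UBE2Z, PSMB8, PSMB9, PSMB10 and the marker genes were named after their values were seen. The number of arrays limits the precision.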

Additional observations from a re-analysis of the deposited data

How the results depend on the processing

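Of the 12 early differences of the 4 genes, 0 were called in the model of all arrays and 0 of 153 alternative values were called, with limma adjusted p from 0.0768 (DHRS2 at 12 h with the 6 arrays of 12 h and 0 h) up. Outside the fits with 6 arrays, the spread came in part from the late arrays, which the choice of genes had selected as wide. Those alternatives could therefore hardly call these genes and do not show that the missed calls are robust. LGSN has no value in the alternative that leaves out the dimmest genes, since it is one of them. With the number as a replicate block, DHRS2 at 12 h differed by 1.36 (limma adjusted p = 0.412), and the genes called numbered 374 (4 h), 1306 (8 h), 1589 (12 h), 2427 (24 h) and 2897 (48 h), against 322, 1230, 1483, 2298 and 2768 without the block. The block moved 1 list count by over 1.5 times, that of the short-chain dehydrogenases at 48 h, to 2 genes in place of 1.

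Without single arrays, DHRS2 at 12 h differed by 0.93 to 1.99. RANBP3L at 24 h ranged from -0.11 (without replicate 3, alone or with replicate 3 of 48 h, a reversal) to 2.78, and at 48 h from 0.03 to 3.42. LGSN ranged from 1.07 to 2.54 and from 0.65 to 2.01, UBD from 1.45 to 3.83 and from 2.42 to 4.61, and DHRS2 from 1.35 to 3.16 and from 1.70 to 4.13.

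The number of genes called at 4 h was 125 with only the 6 arrays compared, 566 with array weights and 109 to 256 without single arrays (135 without 0 h replicate 2, 156 and 109 without 4 h replicates 1 and 2). At 8 h it was 575, 2183 and 759 to 1004 (759 without 0 h replicate 2), and at 12 h 888 to 1229 (977 without 0 h replicate 2, 888 without 12 h replicate 1). With centred arrays, which moved every difference by -0.09 at 4 h and -0.12 at 12 h, the higher share of the calls was 47.1% in place of 66.5% at 4 h and 30.6% in place of 48.6% at 12 h. The causes of these shifts were not tested. List counts moved by over 1.5 times in 45 of 252 alternatives.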

Other observations

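The 16 genes that replicate 3 had over 2-fold above both other arrays at 24 h and at 48 h were NADK2, EVI2A, SCIMP, PTPRE, S100A10, GEM, GCNA, SLC6A12, MPZL2, MPP1, MYRFL, VAV3, CCL26 and CALB1, with RANBP3L and LGSN. EVI2A read 5.91, 6.23 and 7.52 at 24 h and 6.14, 6.17 and 8.10 at 48 h, against 7.14, 7.16 and 7.23 at 0 h, so its replicate 3 was at or above the 0 h level while the others were below it. S100A10 read 6.63, 6.26 and 7.92 at 24 h and 6.42, 6.42 and 8.36 at 48 h, against 4.30, 4.45 and 4.76 at 0 h.

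Interferon genes were read for their known link to UBD. IFNB1, the interferon beta gene, read 4.34, 4.85 and 2.85 at 24 h and 2.82, 3.40 and 2.86 at 48 h, against 2.15 to 3.38 on the early arrays. Replicates 1 and 2 of 24 h were its only arrays clearly above that range. IFNG, the interferon gamma gene, read 2.37, 2.52 and 2.66 at 24 h and 2.68, 2.55 and 3.61 at 48 h, against 2.40 to 3.26 early. Its highest value, in replicate 3 of 48 h, was still under that array's median (4.12). The other late IFNG values were under the lower quartile of their arrays, near the lower end of the scale. A link between these levels and UBD was not tested. These genes were chosen after their values were seen, and no test was run on them.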
